A study of Mus musculus with 10 samples.

Results

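Small leucine-rich proteoglycans are secreted matrix proteins with a short core built of leucine-rich repeats. The genes examined were the 10 members *Dcn*, *Bgn*, *Lum*, *Fmod*, *Omd*, *Ogn*, *Prelp*, *Aspn*, *Kera* and *Podn*, chosen by name and found by Ensembl identifier among the 40620 genes of the deposited count table. All 10 were found. Their transcripts were followed in MC3T3-E1 cells, subclone 4, a clonal line of mouse pre-osteoblasts, so the samples are cultures of 1 line and not bone tissue. The 5 stages were subconfluent and confluent cells, both in growth medium of αMEM with 10% serum, and cells after 24 h, 14 d and 21 d in differentiation medium, to which β-glycerophosphate (10 mM) and ascorbic acid (50 µg/ml) had been added besides the serum. Each stage had 2 replicates, called A and B, giving 10 samples. The labels do not say whether A and B were separate cultures, so the p-values measure the spread between these samples, which may be technical.

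In bone and other connective tissue these proteoglycans sit on collagen fibrils and set how thick the fibrils grow and how they are spaced, and several of them also bind growth factors such as TGF-β. The class I members decorin (*Dcn*) and biglycan (*Bgn*) carry chondroitin or dermatan sulfate chains on serines that are followed by glycine, whereas asporin (*Aspn*), the third of the class, has a run of aspartates near its start and binds calcium. The class II members are lumican (*Lum*), fibromodulin (*Fmod*), prolargin (*Prelp*), keratocan (*Kera*) and osteomodulin (*Omd*), several of which carry keratan sulfate or sulfated tyrosines. Osteoglycin (*Ogn*) is a class III member, and podocan (*Podn*) belongs to a more distant class.

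The contrast within class I can be read in the coding sequence. The lines below give a short stretch of exon 2 of each gene in GENCODE vM21 (GRCm38), 5′ to 3′, with codons for serine followed by glycine in capitals in *Dcn* and *Bgn*, and the longest run of aspartate codons in capitals in *Aspn*.
Dcn (chr10:97483450-97483479, + strand): gaagatgaggctTCTGGCataatcccttat
Bgn (chrX:73490901-73490948, + strand): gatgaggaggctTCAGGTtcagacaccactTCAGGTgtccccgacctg
Aspn (chr13:49551763-49551798, + strand): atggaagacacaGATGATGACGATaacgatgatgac
Among the first 60 codons *Dcn* had 1 such serine-glycine pair, at codon 34, and *Bgn* had 2. *Aspn* had 0, and its longest run of aspartate codons was 4, from codon 38, followed by an asparagine codon and more aspartate codons.

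Most of the members lie in rows of related genes. On chromosome 10 *Dcn*, *Lum*, *Kera* and the related *Epyc* follow each other on the same strand within 202.8 kb. On chromosome 13 *Ecm2*, *Aspn*, *Omd* and *Ogn* follow each other within 119.7 kb, and the gene *Cenpp* spans them on the opposite strand. On chromosome 1 *Optc* and *Prelp* lie on the minus strand and *Fmod* on the plus strand, within 151.1 kb. *Bgn* lies on the X chromosome (73483602 to 73495933) and *Podn* on chromosome 4 (108014791 to 108096445). No other protein-coding gene lies between neighbours in these rows.

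Because *Aspn*, *Omd* and *Ogn* are adjacent and had their highest means at different stages (24 h, 14 d and 24 h), the 250 bases before the start that RefSeq gives each of them (GRCm38.p6) are shown. Capitals mark the letters TATAAA and, for RUNX factors, TGTGGT, on either strand.
Aspn (chr13:49544193-49544442, + strand): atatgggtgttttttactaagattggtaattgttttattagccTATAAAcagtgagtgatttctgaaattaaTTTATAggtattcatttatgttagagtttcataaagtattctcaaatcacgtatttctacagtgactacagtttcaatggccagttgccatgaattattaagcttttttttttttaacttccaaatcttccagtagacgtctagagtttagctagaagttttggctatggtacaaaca
Omd (chr13:49582212-49582461, + strand): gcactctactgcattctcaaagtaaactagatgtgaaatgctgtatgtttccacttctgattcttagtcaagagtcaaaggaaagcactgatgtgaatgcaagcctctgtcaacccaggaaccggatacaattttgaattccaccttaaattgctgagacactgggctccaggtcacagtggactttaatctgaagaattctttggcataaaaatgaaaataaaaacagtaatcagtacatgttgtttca
Ogn (chr13:49607765-49608014, + strand): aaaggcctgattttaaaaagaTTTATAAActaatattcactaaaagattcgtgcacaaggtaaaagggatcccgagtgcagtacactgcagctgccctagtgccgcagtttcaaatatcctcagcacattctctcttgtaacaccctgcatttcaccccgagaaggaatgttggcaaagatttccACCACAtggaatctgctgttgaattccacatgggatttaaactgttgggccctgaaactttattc
A promoter of 250 bases before and 50 bases after the start was matched for 8 of the 10 members, all but *Dcn* and *Lum*. TGTGGT was found in *Ogn*, 65 bases before the start on the minus strand, and in none of the other 7. Of 32851 mouse promoters of this length, 16.8% hold it. TATAAA was found in *Ogn*, 229 and 227 bases before the start, and in *Aspn*, 207 and 178 bases before it, against 13.6% of all promoters. In *Ogn* its matches on both strands overlap in the capitals above. The letters GGGCGG, a GC box, occurred 3 times before *Bgn* and 2 times before *Podn*, against 35.7% of promoters with any. The letters TGACTCA, an AP-1 site, were in none, against 5.2% of promoters. GC content ran from 31.0% before *Aspn*, 37.7% before *Omd* and 42.3% before *Ogn* to 63.7% before *Bgn* and 77.0% at the higher of the 2 promoters of *Podn*, where the median of all promoters was 52.7%. A match of letters is a description of the sequence and not evidence of binding.

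The depth was 44736156 to 162939333 counts on genes per sample. The replicates at 24 h differed more than at any other stage: over 16133 genes the SD of the log2 ratio of A to B was 0.683 at 24 h and 0.285 to 0.324 at the other stages. The 14 d and 21 d libraries carry another pair of index sequences than those of the 3 earlier stages. These groups are called library sets here, though the labels do not say whether they were prepared apart. Any difference across this line cannot be told apart from a difference between the sets. Within each set some libraries share both an index sequence and a lane number, so a set was not all sequenced in the same run. The summed RPKM of 8 osteoblast markers ran from 4890 to 15900, most of it *Col1a1* at every stage. *Col1a1* was 5655 of 5720 in subconfluent replicate A and 4900 of 8520 in 21 d replicate B. *Runx2* was at 17.6 RPKM or more and *Sp7* at 23.3 or more in every sample, whereas the late markers *Phex* (0.0617 to 0.291) and *Dmp1* (0.593 to 1.26) were low in the 6 samples before 14 d. Markers of adipocytes summed to at most 1.13 RPKM and those of endothelium to at most 0.107. Those of macrophages and blood summed to 15.5 to 21.7 RPKM, most of it *Lyz2* (9.81 or more in every sample), while the leukocyte gene *Ptprc* was at 0 throughout. Those of muscle summed to 14.3 to 43.6 RPKM, nearly all *Acta1*, while the muscle regulator *Myod1* was at 0 in all samples.

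The family was abundant at every stage and its make-up changed. RPKM, in which the authors divided counts by gene length and sequencing depth, allows levels of different genes to be compared if that length holds. The length used was 2075 bases for *Dcn* and 2827 for *Bgn*, where the exons of GENCODE vM21 cover 5838 and 6099. For *Fmod* it was 3303 against 3306, so shares, ranks and ratios between members depend on the length used. The summed RPKM of the 10 members was 1924 and 1873 in subconfluent, 2020 and 1897 in confluent, 2233 and 2771 at 24 h, 2637 and 2721 at 14 d and 2849 and 2810 at 21 d, in replicates A and B. *Bgn* and *Fmod* were the most abundant members at every stage in the mean, and among 21295 protein-coding genes ranked by mean RPKM they held places 48 and 71 in subconfluent cells and 61 and 64 at 21 d. Their joint share of the family's RPKM was 77.9% and 79.5% in subconfluent cells, 44.4% and 48.8% at 24 h, and 72.7% and 71.2% at 21 d. *Lum*, *Dcn* and *Aspn* did the opposite, with 15.6% and 14.4% in subconfluent cells, 43.2% and 38.3% at 24 h and 14.6% and 15.7% at 21 d. The remaining share at 14 d included more *Omd* (4.62% and 6.63%) and *Prelp* (4.73% and 4.45%) than in subconfluent cells (0.165% and 0.130% of *Omd*, 0.583% and 0.560% of *Prelp*).

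**Figure D1:**
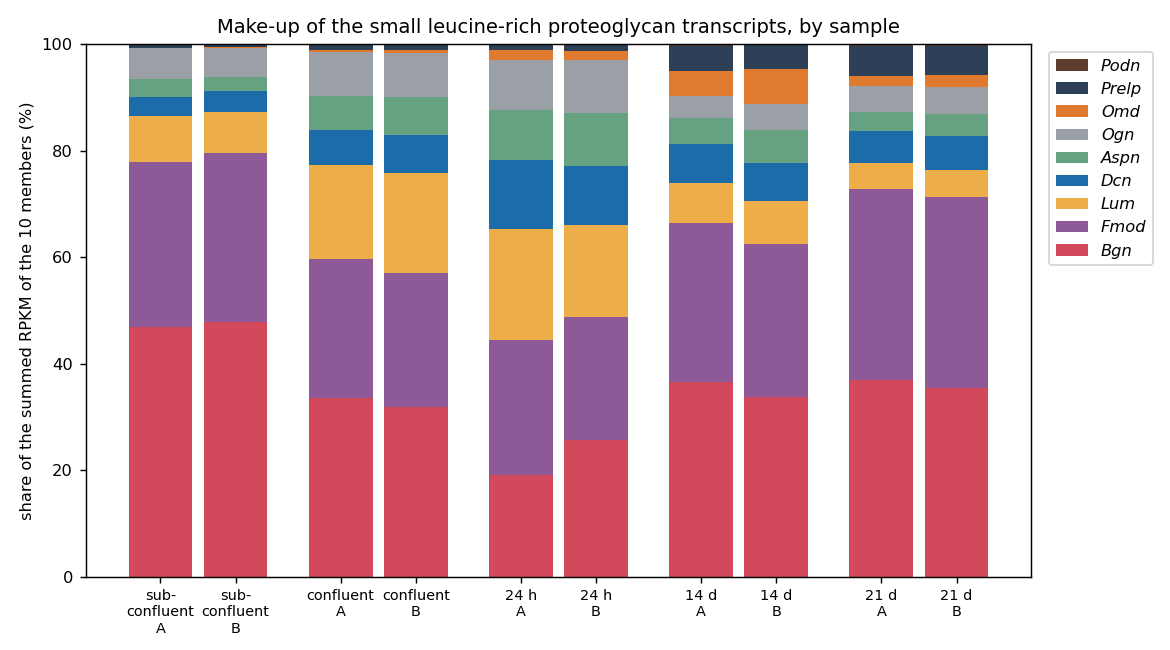
Share of each member in the summed RPKM of the 10 members (y axis, percent) in each of the 10 samples (x axis, stage and replicate). The joint share of *Bgn* and *Fmod*, the lowest layers of each bar, is smallest at 24 h (46.6% in the mean) and largest in subconfluent cells (78.7%).

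The members had their highest means at 3 different stages, as the plot of RPKM by sample shows. *Dcn*, *Lum*, *Aspn* and *Ogn* had their highest mean at 24 h. *Omd* had it at 14 d. *Bgn*, *Fmod*, *Prelp* and *Podn* had it at 21 d, but by different courses. *Bgn* and *Fmod* were lower in confluent than in subconfluent cells, whereas *Prelp* and *Podn* were higher. All 9 tested members differed among the 5 stages at an adjusted p under 0.05 in edgeR's quasi-likelihood F test, which 48.9% of the 20808 tested genes also did. The adjusted p ran from 4.4e-06 for *Prelp* to 0.014 for *Bgn*. *Kera*, the tenth member, did not pass the filter on low counts.

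**Figure D2:**
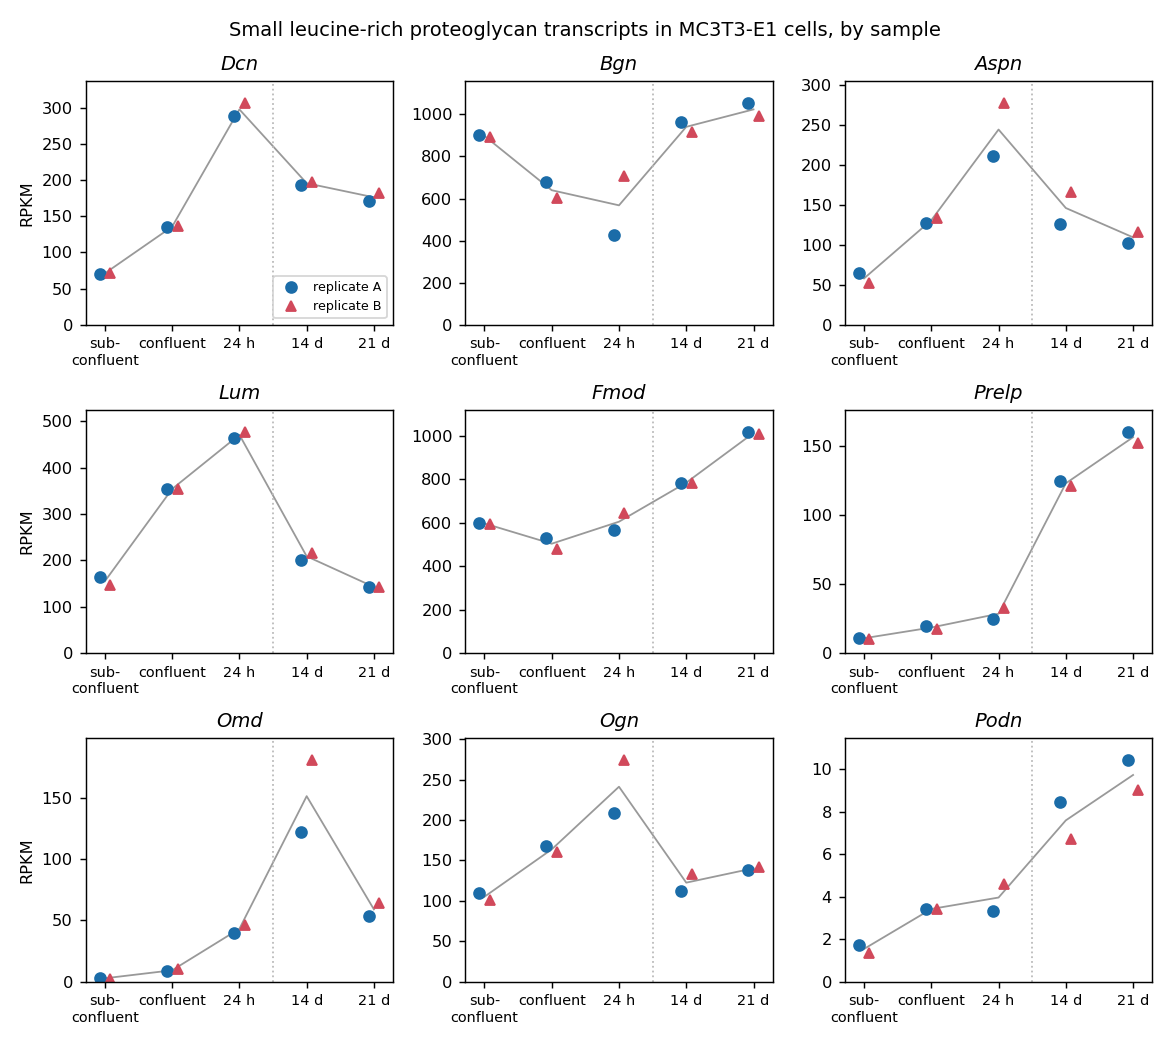
RPKM (y axis, linear, from 0) of the 9 tested members at the 5 stages (x axis), with replicate A as circles, replicate B as triangles and a line through the means. The dotted line separates the stages with different pairs of index sequences. The peak lies at 24 h for *Dcn*, *Lum*, *Aspn* and *Ogn*, at 14 d for *Omd* and at 21 d for the other 4.

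Among the class I genes, *Dcn*, whose product binds collagen fibrils and TGF-β, was measured at 70.8 and 71.5 RPKM in subconfluent, 135.0 and 136.3 in confluent, 289.2 and 306.3 at 24 h, 193.7 and 197.7 at 14 d and 170.9 and 181.5 at 21 d. No neighbouring stages in the order of its means overlapped. The peak at 24 h was followed by lower values that stayed above those of confluent cells. *Bgn*, an abundant proteoglycan of bone matrix that can also signal through Toll-like receptors, was at 900.2 and 894.5, 676.5 and 602.5, 426.7 and 708.6, 964.8 and 916.5, and 1053 and 994.0 RPKM in the same order of stages. Its replicates at 24 h were far apart, A being the lowest of all samples and B above both confluent samples, and the *Bgn* difference between them (−0.858 on the log2 scale) was larger than that of any other member at that stage. *Aspn* was at 64.4 and 51.8, 127.7 and 134.3, 211.6 and 277.6, 126.8 and 165.8, and 102.7 and 116.4 RPKM. Its values at 14 d spanned those of confluent cells, and the other neighbours in the order did not overlap.

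Among the class II genes, *Lum*, a regulator of fibril thickness best known from the cornea, was at 164.4 and 146.0, 353.2 and 354.5, 463.8 and 477.2, 201.0 and 216.6, and 142.2 and 143.4 RPKM. The values at 21 d lay just below those of subconfluent cells. *Fmod*, which binds collagen and lysyl oxidase, was at 598.5 and 594.2, 528.9 and 477.6, 565.4 and 643.4, 784.0 and 783.4, and 1018 and 1006 RPKM. Its samples at 24 h spanned those of subconfluent cells, and every sample at 14 d and 21 d was above every earlier one. *Prelp*, whose product links basement membranes to collagen, was at 11.2 and 10.5, 19.5 and 17.7, 24.8 and 32.4, 124.6 and 121.1, and 160.2 and 152.2 RPKM. Its values climbed from stage to stage without overlap. *Omd*, also called osteoadherin, a proteoglycan of mineralized tissue that binds hydroxyapatite and osteoblasts, was at 3.17 and 2.43, 8.39 and 10.3, 40.0 and 46.2, 121.8 and 180.5, and 53.4 and 64.4 RPKM. No neighbouring stages in its order overlapped, and the 14 d replicates were the widest apart (−0.607 on the log2 scale, A against B).

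*Kera*, a keratan sulfate proteoglycan of the cornea, had at most 2 counts in any sample and 0.0166 RPKM at the highest, so no difference was detectable at this depth. *Ogn*, which is found in bone and many other tissues, was at 109.5 and 100.8, 167.3 and 160.2, 208.3 and 274.1, 112.2 and 132.9, and 138.1 and 142.5 RPKM. Like *Aspn* it was highest in both 24 h samples, and no neighbouring stages in its order overlapped. *Podn*, a leucine-rich protein first described in kidney podocytes, was at 1.72 and 1.36, 3.40 and 3.44, 3.34 and 4.58, 8.46 and 6.71, and 10.4 and 9.02 RPKM. The samples of *Podn* at 24 h and in confluent cells overlapped, and it was the least abundant of the 9 tested members at 21 d. In rank among protein-coding genes *Omd* went from place 9144 in subconfluent cells to 326 at 14 d and 893 at 21 d, *Prelp* from 5348 to 307 at 21 d, and *Podn* from 10129 to 5286.

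Changes were tested on the counts with edgeR, in a model of all 10 samples. A member was called higher or lower at an adjusted p under 0.05 over all 20808 tested genes and a change of more than 2-fold. Changes are given as log2 fold changes with their standard error (SE). Between confluent and subconfluent cells, which differ in density and not in medium, 4 of the 9 tested members were called higher and 0 lower, where 1.0% of all tested genes were called higher and 0.423% lower. These were *Omd* (1.70 ± 0.24, adjusted p = 0.012), *Lum* (1.16 ± 0.10, adjusted p = 0.0021), *Aspn* (1.15 ± 0.18, adjusted p = 0.022) and *Podn* (1.12 ± 0.18, adjusted p = 0.021). *Dcn* (0.90 ± 0.08, adjusted p = 0.0025) and *Prelp* (0.75 ± 0.12, adjusted p = 0.018) passed the p threshold at less than 2-fold. *Ogn* did not pass it (0.61 ± 0.14, adjusted p = 0.063), nor did the members with the highest level, *Bgn* (−0.52 ± 0.19, adjusted p = 0.23) and *Fmod* (−0.27 ± 0.10, adjusted p = 0.21). The median change of the 9 members was 0.905 and that of all genes was 2.2e-05. The call of *Lum* was kept under every alternative normalization, filter, sample set and tool and without any 1 replicate. The other calls were nearer the p threshold. *Omd* did not pass it without either subconfluent replicate or without confluent replicate B (1.92, 1.52 and 1.54, adjusted p = 0.067, 0.11 and 0.098). *Aspn* and *Podn* did not pass it without any 1 of the subconfluent, confluent or 21 d replicates (0.98 to 1.32 and 0.95 to 1.31, adjusted p = 0.052 to 0.16), the 21 d replicates being in the model and not in the comparison. *Podn* was not called either under library size alone (adjusted p = 0.056) and in limma-trend on log2(RPKM + 1) (adjusted p = 0.065).

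**Figure D3:**
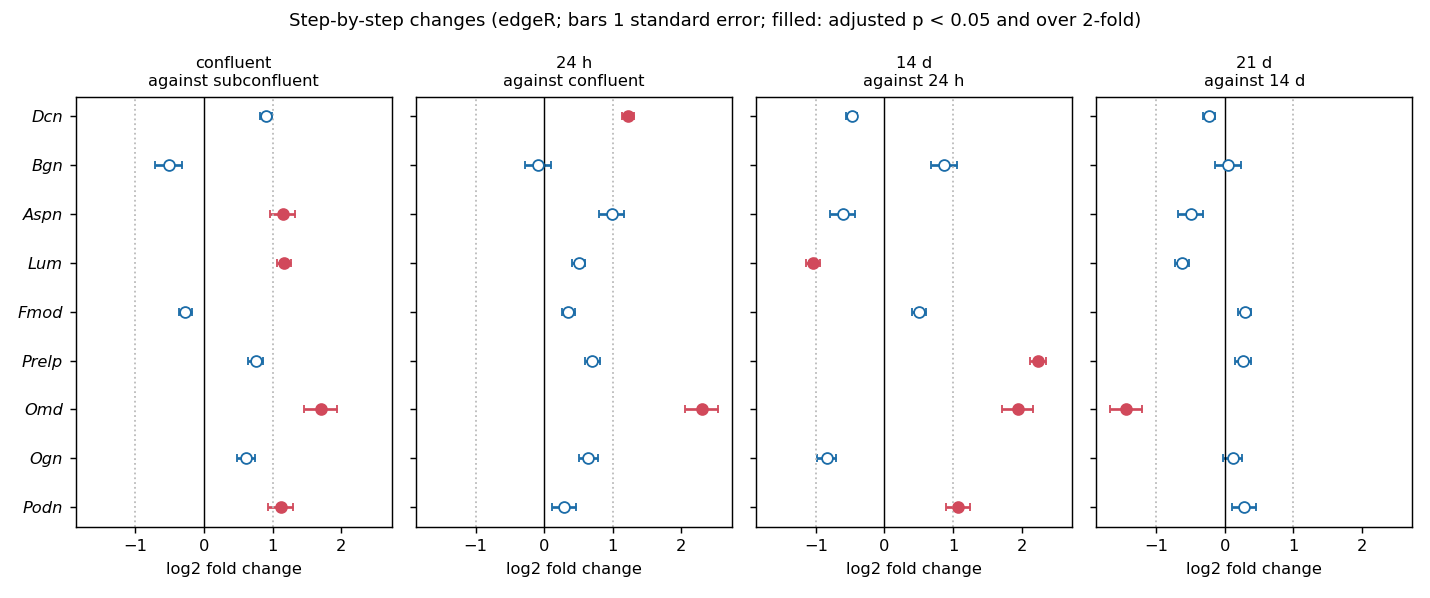
Log2 fold change (x axis) of the 9 tested members (y axis) in the 4 comparisons of successive stages, with bars of 1 standard error. Filled red points passed an adjusted p of 0.05 and 2-fold, and dotted lines mark 2-fold. *Omd* is filled in all 4 panels, above 0 in the earlier 3 and below 0 from 14 d to 21 d.

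After 24 h in differentiation medium, 2 members were called higher than in confluent cells and 0 lower, where 1.76% of all genes were called higher and 0.365% lower. *Omd* rose by 2.29 ± 0.24 (4.9-fold, adjusted p = 0.0037) and *Dcn* by 1.22 ± 0.08 (2.34-fold, adjusted p = 0.00076). *Aspn* (0.98 ± 0.18, adjusted p = 0.028), *Prelp* (0.70 ± 0.12, adjusted p = 0.017), *Ogn* (0.64 ± 0.14, adjusted p = 0.043) and *Lum* (0.50 ± 0.10, adjusted p = 0.034) were higher by less than 2-fold. *Bgn* differed by −0.09 ± 0.19 (adjusted p = 0.8), and by 0.19 without 24 h replicate A. Without that replicate *Aspn* was called too (1.12, adjusted p = 0.018). A fit of these 4 samples alone called 0 of 19562 genes, with a lowest adjusted p of 0.074, so no member could pass in it, and *Omd* (2.30) and *Dcn* (1.23) had changes of the same size.

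From 24 h to 14 d members changed in both directions. *Prelp* rose by 2.23 ± 0.12 (4.71-fold, adjusted p = 9.1e-05), *Omd* by 1.94 ± 0.23 (3.84-fold, adjusted p = 0.0024) and *Podn* by 1.07 ± 0.17 (adjusted p = 0.008), whereas *Lum* fell by 1.05 ± 0.10 (2.06-fold, adjusted p = 0.00096). These were 3 members called higher and 1 lower, where 4.47% of all genes were called higher and 1.51% lower. Below 2-fold, *Bgn* (0.87 ± 0.19, adjusted p = 0.023) and *Fmod* (0.50 ± 0.10, adjusted p = 0.015) were higher, and *Ogn* (−0.84 ± 0.14, adjusted p = 0.0079) and *Dcn* (−0.48 ± 0.08, adjusted p = 0.0097) were lower. *Aspn* differed by −0.61 ± 0.18 (adjusted p = 0.061). This step crosses the library sets, from which it cannot be told apart. Without 14 d replicate A the change of *Lum* was −0.98 and that of *Podn* 0.91, both under 2-fold, without 24 h replicate A that of *Podn* was 0.90, and without 24 h replicate B *Bgn* was called higher (1.17, adjusted p = 0.00016). *Podn* was also under 2-fold with library size alone (0.96), with no filter and in limma-trend. In a fit of these 4 samples alone, which called 319 of 19819 genes against 1245 in the model of all samples, *Podn* (1.04, adjusted p = 0.12), *Lum* (−1.08, adjusted p = 0.093) and *Omd* (1.91, adjusted p = 0.06) kept changes of like size and did not pass the p threshold.

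From 14 d to 21 d *Omd* fell by 1.44 ± 0.23 (2.7-fold, adjusted p = 0.0082), and it was the member called. These stages share a pair of index sequences, though their libraries were not all sequenced in the same run. Of all genes 2.45% were called lower and 1.52% higher. *Lum* was lower by less than 2-fold (−0.62 ± 0.10, adjusted p = 0.0083). The other 7 did not pass the p threshold: *Fmod* differed by 0.30 ± 0.10 (adjusted p = 0.11), *Prelp* by 0.27 ± 0.11 (adjusted p = 0.2), *Podn* by 0.28 ± 0.17 (adjusted p = 0.39), *Ogn* by 0.12 ± 0.14 (adjusted p = 0.7), *Bgn* by 0.05 ± 0.19 (adjusted p = 0.94), *Dcn* by −0.23 ± 0.08 (adjusted p = 0.15) and *Aspn* by −0.49 ± 0.18 (adjusted p = 0.15). The fall of *Omd* was −1.31 without 21 d replicate A, and was then not called (adjusted p = 0.088).

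Over longer spans, both across the library sets, the calls were all upward. At 14 d against confluent cells 3 members were called higher and 0 lower, where 9.15% of all genes were called higher and 3.85% lower. *Omd* was 18.8-fold higher (4.24 ± 0.26, adjusted p = 6.1e-05), *Prelp* 7.67-fold (2.94 ± 0.12, adjusted p = 1.5e-05) and *Podn* 2.58-fold (1.37 ± 0.18, adjusted p = 0.0013), though under 2-fold in limma-trend on log2(RPKM + 1) (0.95). *Fmod* (0.86 ± 0.10, adjusted p = 0.00083), *Bgn* (0.77 ± 0.19, adjusted p = 0.02) and *Dcn* (0.75 ± 0.08, adjusted p = 0.00072) were higher and *Lum* (−0.54 ± 0.10, adjusted p = 0.0057) lower by less than 2-fold. *Ogn* (−0.20 ± 0.14, adjusted p = 0.31) and *Aspn* (0.38 ± 0.18, adjusted p = 0.16) did not pass.

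At 21 d against subconfluent cells 5 members were called higher and 0 lower, where 16.3% of all genes were called higher and 11.3% lower. *Omd* was 22.6-fold higher (4.50 ± 0.26, adjusted p = 1.5e-05), *Prelp* 15.6-fold (3.96 ± 0.13, adjusted p = 2.5e-06), *Podn* 6.8-fold (2.77 ± 0.19, adjusted p = 2.6e-05), *Dcn* 2.69-fold (1.43 ± 0.08, adjusted p = 1.6e-05) and *Aspn* 2.04-fold (1.03 ± 0.18, adjusted p = 0.0028). *Aspn* fell under 2-fold without subconfluent replicate B (0.84) or 21 d replicate B (0.93), under library size alone (0.87) and in limma-trend. *Fmod* (0.88 ± 0.10, adjusted p = 0.00026) and *Ogn* (0.53 ± 0.14, adjusted p = 0.014) were higher by less than 2-fold. *Bgn* (0.31 ± 0.19, adjusted p = 0.22) and *Lum* (−0.004 ± 0.099, adjusted p = 0.98) did not pass, and *Lum* had been higher in between. Scaling by library size alone lowered the median change of all genes to −0.13 at 24 h against confluent, −0.20 at 14 d against confluent and −0.116 at 21 d against subconfluent cells. Under it no member changed sign.

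The ratio of 2 members within a sample does not depend on the scaling between samples, though its size depends on the gene lengths used. *Bgn* to *Dcn*, the class I members that carry chondroitin or dermatan sulfate, was 12.7 and 12.5 in subconfluent, 5.01 and 4.42 in confluent, 1.48 and 2.31 at 24 h, 4.98 and 4.64 at 14 d and 6.16 and 5.48 at 21 d. *Fmod* to *Lum*, which share a binding region on collagen, was 3.64 and 4.07, 1.5 and 1.35, 1.22 and 1.35, 3.90 and 3.62, and 7.16 and 7.02. Both ratios had their lowest mean at 24 h, and at 21 d *Fmod* to *Lum* was above every subconfluent sample whereas *Bgn* to *Dcn* was below every one. *Lum* to *Dcn*, neighbours on chromosome 10, was 2.62 and 2.60 in confluent cells and 0.832 and 0.790 at 21 d. *Omd* to *Ogn*, neighbours on chromosome 13 whose upstream sequences stand above, went from 0.0289 and 0.0241 in subconfluent cells to 1.09 and 1.36 at 14 d and 0.387 and 0.452 at 21 d. In counts, with no length correction, *Omd* stayed below *Ogn* at 14 d (17018 and 25580 in A, 9248 and 11106 in B). With 2 samples against 2 an exact two-sided permutation test cannot give a p below 0.333, so the ratios are given without a test.

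**Figure D4:**
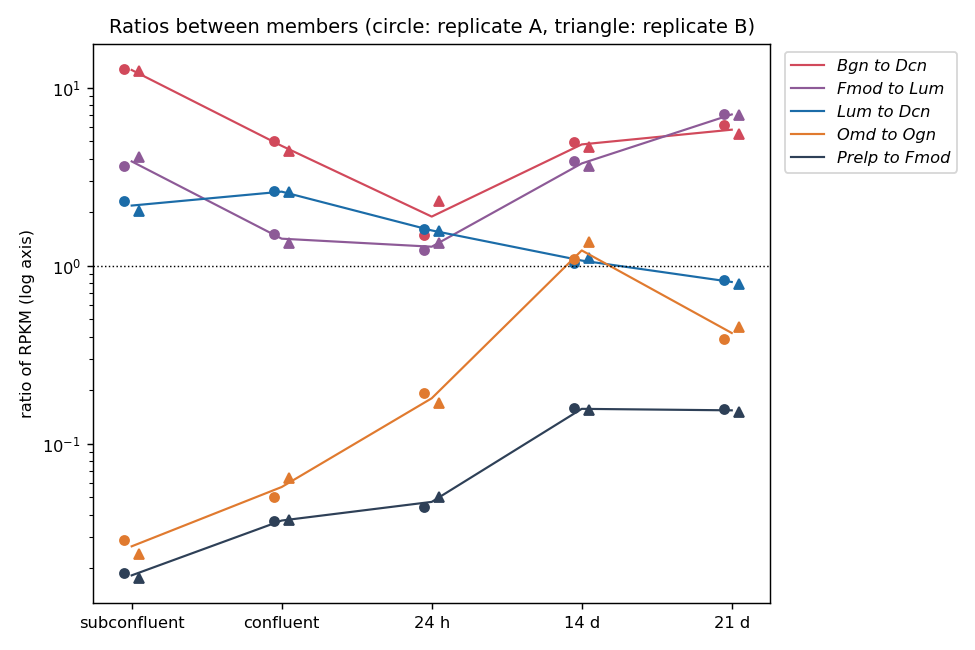
Ratio of the RPKM of 5 pairs of members (y axis, log scale) at the 5 stages (x axis), with circles for replicate A, triangles for replicate B and lines through the means. *Omd* to *Ogn* passes 1 at 14 d in RPKM, though not in counts. *Bgn* to *Dcn* and *Fmod* to *Lum* are lowest at 24 h, at 1.89 and 1.28 in the mean.

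The changes of neighbours in the genome stand side by side here. On chromosome 13 *Omd* was 22.6-fold higher at 21 d than in subconfluent cells, *Aspn* 2.04-fold and *Ogn* 1.45-fold, and *Ecm2*, a leucine-rich matrix gene at 1.41 and 1.30 RPKM in subconfluent and 2.13 and 2.30 at 21 d, was 1.77-fold higher (adjusted p = 0.0011). On chromosome 1 *Prelp* was 15.6-fold higher and *Fmod* 1.84-fold, and *Optc* (opticin, of the vitreous of the eye) stayed at or below 0.221 RPKM. On chromosome 10 *Epyc* (epiphycan, of cartilage) did not pass the filter and was at 0 in 7 of the 10 samples, like *Kera* close to the limit of detection beside the abundant *Dcn* and *Lum*. *Prelp* shares 350 exon bases with the antisense gene *Gm15851*, and whether counting used the strand is not given in the sources used here, but *Gm15851* had a mean count of 209 against 12569 for *Prelp*.

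Over the 10 samples, log2 CPM of the members were correlated, given as a description since the samples share stages and library sets. *Prelp* and *Podn* (Pearson's r = 0.967), *Fmod* and *Prelp* (0.919) and *Omd* and *Podn* (0.902) were close pairs among members with their highest mean at 14 d or 21 d. *Dcn* and *Aspn* (0.942), *Aspn* and *Ogn* (0.90) and *Lum* and *Ogn* (0.826) were close pairs among those with their highest mean at 24 h. The pairs did not divide by stage of the highest mean: *Dcn* and *Omd* (0.853), *Omd* and *Aspn* (0.721) and *Dcn* and *Podn* (0.694) were closer than *Dcn* and *Lum* (0.592) or *Bgn* and *Omd* (0.308). *Bgn* and *Lum* were opposed (−0.811). Among the other 20799 tested genes the most alike was *Col15a1*, a basement membrane collagen, for *Prelp* (0.997), *C1qtnf3* for *Omd* (0.995), *Hapln4* for *Podn* (0.995), *Cep83os* for *Fmod* (0.995), *Thbs1*, the matrix protein thrombospondin-1, for *Bgn* (0.987), *Amacr* for *Dcn* (0.986), *Wrb* for *Lum* (0.979), *Nrep* for *Aspn* (0.961) and *Egr4* for *Ogn* (0.945). *Thbs1*, like *Bgn*, was lower in replicate A than in B at 24 h, with 44.1 and 100.3 RPKM. This gap was not particular to them. Fibronectin, *Fn1* (291.5 and 651.0), and *Col1a1* (3788 and 6406) had it too, though *Lyz2* (15.2 and 13.4) did not.

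Genes that build, modify or bind these proteoglycans were taken from 7 lists, and their changes at 21 d against subconfluent cells are given beside those of the members. In this comparison 16.3% of all tested genes were called higher and 11.3% lower, with a median change of 0.039. Of 8 further relatives 7 were tested and 3 were called higher, the chondroadherin-like *Chadl* (0.351 and 0.210 to 6.48 and 6.52 RPKM, adjusted p = 1.8e-05), and *Nyx* and *Optc*, both below 1 RPKM throughout. Of 23 genes of chondroitin and dermatan sulfate synthesis 21 were tested, 3 were called higher and 2 lower. The chondroitin sulfotransferases *Chst3* (1.79 ± 0.29, adjusted p = 0.0017) and *Chst15* (1.13 ± 0.11, adjusted p = 0.00015) rose, as did *Chst13*, at most 0.256 RPKM, and the xylose phosphatase *Pxylp1* (−1.22 ± 0.10, adjusted p = 6.6e-05) and the sulfotransferase *Chst7* (−1.05 ± 0.13, adjusted p = 5e-04) fell. The median change of this list was 0.159 and that of the members 1.03. Of 12 genes of keratan sulfate and sulfation 9 were tested, and the galactosyltransferase *B4galt4* rose (2.31 ± 0.20, adjusted p = 7.2e-05) while *Papss2*, which makes the sulfate donor, fell (−1.29 ± 0.12, adjusted p = 9.4e-05).

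The next 3 lists are for the same comparison, in which 16.3% of all tested genes were called higher and 11.3% lower. Of 12 proteases and their enhancers 9 were tested, 2 were called higher and 2 lower. The collagenase *Mmp13* rose 10.7-fold (9.73 and 8.59 to 83.8 and 98.1 RPKM, adjusted p = 5.5e-06) and the aggrecanase *Adamts4* 2.92-fold (adjusted p = 0.00095), whereas the aggrecanase *Adamts5* fell 3.44-fold (adjusted p = 0.00024) and the procollagen C-proteinase enhancer *Pcolce2* 2.19-fold (adjusted p = 0.00025). Of 16 collagens and other matrix partners 15 were tested, 2 were called higher, and their median change was 0.0551. Fibronectin, *Fn1*, rose 5.9-fold (485.9 and 487.7 to 2816 and 2480 RPKM, adjusted p = 0.00044), and elastin, *Eln*, was called from at most 0.00381 to 0.191 and 0.231 RPKM. Of 17 growth factors and receptors that bind members 15 were tested, 2 were called higher and 4 lower. *Tgfb1*, a ligand of decorin, rose 2.83-fold (21.4 and 22.2 to 58.8 and 54.8 RPKM, adjusted p = 2.1e-05) and the endocytic receptor *Lrp1* 2.21-fold (adjusted p = 0.005), while *Bmp4* (−2.48 ± 0.20, adjusted p = 6.5e-05), the HGF receptor *Met* (−1.64 ± 0.26, adjusted p = 0.0016) and *Ccn4* (−1.43 ± 0.17, adjusted p = 0.00037) were the 3 largest falls.

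Marker levels changed over the stages too. The summed RPKM of the 8 osteoblast markers was 4890 to 7670 in the 3 earlier stages. Like *Omd* it was highest at 14 d, with 15900 and 14600, and it was 9070 and 8520 at 21 d. Most of the sum was *Col1a1* (10420 and 8996 at 14 d), and *Dmp1* of the same list was highest at 21 d (29.0 and 16.1). *Ibsp*, a bone matrix phosphoprotein, went from 20.04 and 11.8 RPKM in subconfluent cells to 4081 and 4374 at 14 d and 2570 and 2509 at 21 d. Of 8 chondrocyte markers 6 were tested, and their sum ran from 54.8 and 73.0 RPKM at 24 h to 248 and 259 at 14 d, most of it *Col2a1*, while *Acan*, the aggrecan core protein, was at most 0.0207 RPKM in any sample. The 4 tenocyte markers summed to 13.4 to 20.2 RPKM and the 6 markers of macrophages and blood to 15.5 to 21.7. The 3 keratocyte markers, other than *Kera* and *Lum*, summed to 84.5 and 93.4 RPKM in confluent cells and 26.9 and 27.2 at 21 d. Most of this was *Aqp1* (78.1 and 86.3, then 24.1 and 24.6). *Aldh3a1* was highest at 24 h (15.2 and 10.5), and *Ptgds* was at most 0.026 RPKM in any sample. The 4 muscle markers, nearly all *Acta1*, summed to 43.6 RPKM at the highest. In bulk samples fewer cells of a type and less RNA per cell cannot be told apart, and the part of these markers in the members' changes was not tested.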

How the data were processed

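RNA-seq (51 bp paired-end reads) of MC3T3-E1 cells at 5 stages with 2 replicates each was examined. Per the labels the submitters used TopHat2 2.0.9, R 3.0.1, FastQC and mm10, and the counting tool, annotation and strand setting are not given in the sources used here. The authors deposited whole-number read counts per gene without normalization, and RPKM, in which counts are divided by gene length and by the reads of the sample, a total that the summed counts exceed 1.44 to 1.60 times. For 14 d replicate A and 21 d replicate B the merged column of 2 lanes was used. Symbols and coordinates came from GENCODE vM21 (39547 of 40620 identifiers matched) and promoters from RefSeq.

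Counts were fitted in edgeR 4.0.16 (TMM, filterByExpr, all 10 samples, quasi-likelihood test, Benjamini-Hochberg adjustment). The SE was obtained from the F statistic, as the size of the log2 fold change over its root. Levels, shares and ratios were taken from RPKM. The scripts were tested on simulated data. Alternatives were DESeq2 1.42.0, DESeq2 size factors, library size alone, no filter, a minimum of 10 counts, a fit without the 24 h samples, a fit of the groups compared alone, a replicate block, limma-trend (limma 3.58.1) on log2(RPKM + 1) and log2(RPKM + 0.1), the sum of the lanes, other fold thresholds and each replicate left out.

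The members and lists were chosen with earlier results of these data known. Named were all 10 members, their neighbours, from each list up to 3 largest rises and 3 largest falls called at 21 d against subconfluent, and for each tested member the gene with the highest Pearson correlation of log2 CPM (prior count 2). Marker genes named singly, and *Thbs1*, *Fn1*, *Col1a1*, *Lyz2* and *Sdc3* at 24 h, were chosen after their values were seen. Groups of 2 are too small for an outlier test.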

Additional observations from a re-analysis of the deposited data

How the results depend on the processing

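The alternatives were other normalizations, filters, sample sets and tools, other thresholds and each replicate left out. Of the counts of members called, 136 stayed within 1.5 times the value reported, 15 moved further and 4 fell to 0. With more than 4-fold change required, 0 members were called in confluent against subconfluent cells, 1 at 24 h against confluent, 1 at 14 d against 24 h, 0 at 21 d against 14 d and 3 at 21 d against subconfluent. With any fold change allowed, 6, 8, 2 and 7 were called at 24 h against confluent, 14 d against 24 h, 21 d against 14 d and 14 d against confluent. Fitting only the groups compared gave 0 at 24 h against confluent and 1 at 14 d against 24 h, where that fit called 0 of 19562 and 319 of 19819 genes in all. Leaving out 1 replicate gave 1 to 4 in confluent against subconfluent cells, 2 to 3 at 24 h against confluent, 2 to 5 at 14 d against 24 h (2 without 14 d replicate A), 0 to 1 at 21 d against 14 d (0 without 21 d replicate A), 3 at 14 d against confluent, 4 to 5 at 21 d against subconfluent and 8 to 9 for any difference among the stages. With a stage reduced to 1 sample, that sample is taken to vary like the rest.

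Of the log2 fold changes of single members 1072 kept their direction and call, 36 lost and 2 gained a call, and 6 changed sign, all among changes near 0. Those were *Bgn* at 24 h against confluent without 24 h replicate A (0.19, range over left-out replicates −0.42 to 0.19), *Ogn* at 21 d against 14 d without 14 d replicate A (−0.017, range −0.017 to 0.26), and *Lum* at 21 d against subconfluent with at least 10 counts in every sample (0.053), with the sum of the lanes (0.0055), without subconfluent replicate A (0.067) and without 21 d replicate A (0.0031, range over left-out replicates −0.13 to 0.067). From counts with no length correction the joint share of *Bgn* and *Fmod* was 83.2%, 65.5%, 54.9%, 71.1% and 77.0% over the 5 stages, and that of *Lum*, *Dcn* and *Aspn* 11.2%, 25.0%, 33.3%, 16.0% and 11.3%. With the replicate letter as a block, 4, 2, 4, 1, 3 and 5 members were called in the 6 comparisons and 9 differed among the stages, as without it. The labels do not say whether the letters pair the samples. The correlation of the A to B deviations between stages ran from −0.331 to 0.318, with no common sign. Depth limited *Kera*, with at most 2 counts per sample.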

Other observations

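The proteoglycans outside the leucine-rich family changed in both directions between subconfluent cells and 21 d. Of 23 other core protein genes 18 were tested, 6 were called higher and 3 lower, with a median change of 0.623 on the log2 scale, where 16.3% of all genes were called higher and 11.3% lower and the median was 0.039. *Col18a1*, a heparan sulfate proteoglycan of basement membranes, rose 5.78-fold (5.46 and 5.67 to 29.3 and 30.1 RPKM, adjusted p = 2.5e-05 in edgeR). *Esm1* was at most 0.0308 RPKM in subconfluent cells and 1.30 and 1.45 at 21 d, and *Srgn*, the core protein of intracellular granules, was at most 0.0621 and then 0.418 and 0.394 RPKM. Versican, *Vcan*, a large chondroitin sulfate proteoglycan, fell 7.03-fold (8.51 and 8.20 to 1.23 and 0.967 RPKM, adjusted p = 4.9e-05). The cell surface heparan sulfate proteoglycans *Sdc3* (3.09-fold, adjusted p = 0.0086) and *Gpc6* (3.04-fold, adjusted p = 8.7e-05) fell as well, *Sdc3* with 34.8 and 93.6 RPKM in the replicates at 24 h.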
